A study of Rattus norvegicus with 8 samples.

Results

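The nuclear receptors are a family of transcription factors, and 33 of their genes were listed by symbol for a description across the regenerating and the growing rat liver. A gene was taken as measured where the array had a probe set that the annotation pairs with that 1 symbol, and a gene with several such probe sets was represented by the one with the highest mean over the arrays. By this rule 30 of the 33 were measured, out of 14506 genes in all. Rarb, Rora and Nr6a1 were not analysed here. The rule itself uses symbols and no measured value, but the symbols were listed with earlier results of these data known. Each role below is given as background.

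Liver RNA of healthy female Wistar rats was hybridised to 8 Affymetrix Rat Gene 1.0 ST arrays, 2 in each of 4 groups. The groups were liver left in place, taken 8 h after partial hepatectomy (PH), the removal of 2/3 of the organ, and intact livers at 2, 4 and 12 weeks of age. The sources used here do not give the age of the rats that had surgery, and livers of sham-operated rats were not analysed here. For PH against 12 weeks or 2 weeks, the effect of the operation cannot therefore be told apart from those of age and sampling hour. Below, rose and fell give only the direction of a difference between 2 groups. By their titles the 2 arrays of a group are biological replicates, but the design text calls them duplicates, so the p-values measure the spread between these arrays, which may be partly technical. Values are robust multi-array average (RMA) levels on the log2 scale, on which a difference of 1 is 2-fold. In whole liver, fewer cells of a type and less RNA per cell cannot be told apart.

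Nuclear receptors carry a DNA-binding domain with zinc fingers and, in most members, a pocket for a small fat-soluble ligand. Many bind DNA as a pair with a retinoid X receptor (Rxr), hold corepressors when the ligand is absent and take up coactivators when it is bound. In liver they set the expression of genes for bile acid, lipid, glucose, hormone and drug metabolism. Their activity depends on the ligand as well as on the amount of receptor, and only the RNA was measured here.

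The promoters of 3 members are shown because the results turn on Esr1 and Nr1i3, and because the Rxra stretch had the highest CpG ratio of the members' entries. They were chosen after their values were seen. Each is the RefSeq stretch of 300 bases on the GRCr8 build, 250 before and 50 after the annotated start, printed 5′ to 3′ with every CG dinucleotide in capitals. Esr1 lies on chromosome 1 (chr1:43641845-43642144, plus strand), Nr1i3 on chromosome 13 (chr13:86165170-86165469, plus strand) and Rxra on chromosome 3 (chr3:31387642-31387941, plus strand).
Esr1: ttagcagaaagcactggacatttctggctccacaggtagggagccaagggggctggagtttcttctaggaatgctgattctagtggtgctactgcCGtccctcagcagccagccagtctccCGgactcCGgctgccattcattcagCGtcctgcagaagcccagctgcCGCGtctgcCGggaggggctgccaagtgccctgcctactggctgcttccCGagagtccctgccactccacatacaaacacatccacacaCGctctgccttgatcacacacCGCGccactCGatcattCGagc
Nr1i3: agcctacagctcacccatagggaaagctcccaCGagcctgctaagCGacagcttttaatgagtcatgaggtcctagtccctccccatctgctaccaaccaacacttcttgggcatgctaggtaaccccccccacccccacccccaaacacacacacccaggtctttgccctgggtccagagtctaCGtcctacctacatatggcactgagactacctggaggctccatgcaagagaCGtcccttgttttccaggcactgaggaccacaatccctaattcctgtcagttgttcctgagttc
Rxra: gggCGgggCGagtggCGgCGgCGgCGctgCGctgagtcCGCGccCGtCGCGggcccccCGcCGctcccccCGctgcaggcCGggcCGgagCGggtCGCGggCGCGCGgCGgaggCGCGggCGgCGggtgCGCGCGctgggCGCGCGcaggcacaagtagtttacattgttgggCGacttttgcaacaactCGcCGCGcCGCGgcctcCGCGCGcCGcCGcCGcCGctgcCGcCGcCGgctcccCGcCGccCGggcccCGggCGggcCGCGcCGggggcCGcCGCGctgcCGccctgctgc
The Esr1 stretch holds 13 CG dinucleotides, 0.50 times the number that its C and G content would give. The Nr1i3 stretch holds 4, at a ratio of 0.20, and the Rxra stretch 62, at 1.15. RefSeq promoters were found for 26 of the 30 members, in 34 entries, and for 27457 genes in all, in 33469 entries. The median CpG ratio was 0.67 over the members' entries and 0.39 over all entries, and a ratio of at least 0.6 was found in 52.9% and 34.4%. The letters AGGTCA, the half-site that many receptors of the family bind, were in 11.8% of the members' entries and 16.2% of all, searched on both strands. The GC box GGGCGG was in 55.9% and 33.1%, CCAAT in 23.5% and 37.5%, and the cAMP response element core TGACGTCA in 0% and 1.8%. Rxra has 5 GC boxes in the stretch shown, and Esr1 and Nr1i3 have none. A match describes the letters only.

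The arrays of a group correlated over all genes with r between 0.952 at 12 weeks and 0.980 after PH, a correlation across genes, which are not independent. Between the PH arrays 2.98% of genes were at least 2-fold apart, between the 2-week arrays 3.31%, between the 4-week arrays 4.27% and between the 12-week arrays 12.7%. Of the members, 5 were at least 2-fold apart between the 12-week arrays (Ppard, Rxra, Esr1, Nr0b1 and Nr2c1), 2 between the 4-week arrays (Nr1i2 and Hnf4a) and 0 in the other groups. The hepatocyte markers averaged between 13.46 and 13.70 on every array, and 8 of 8 were above background throughout. RMA gives no detection call, so background was taken as the 95th percentile of 229 olfactory, pheromone, taste and trace amine receptor genes on the same array, which lay between 5.31 and 6.19. On this measure 24 of the 30 members were above background on all 8 arrays. The others were Pparg, Vdr, Nr4a1, Nr4a2, Nr4a3 and Nr0b1, whose values can hold little beyond background. Of these, Nr4a2 was above it on 7 arrays and Pparg on 6. The limit was highest on the first 12-week array (6.19) and the first PH array (5.85). The median of the 229 receptor genes was also highest on these, at 4.34 and 4.40, against 3.63 to 3.85 on the others. A fit with that median as a covariate is given at the end.

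No member was called changed in any of the 5 pairwise comparisons or in a test of any difference among the 4 groups. A call is a limma adjusted p under 0.05, with Benjamini-Hochberg adjustment over 14506 genes in 1 model of the 8 arrays, and all adjusted p-values below are of this kind. For PH against 12 weeks 0 of 30 members were called, beside 0.0345% of all genes, and 3 had an unadjusted p under 0.05 (Nr1i3, Rxrg and Thrb), beside 6% of all genes. For 2 against 12 weeks 0 were called, beside 2.23% of genes, and 7 had an unadjusted p under 0.05 (Nr1h3, Rxrg, Thra, Vdr, Nr3c2, Esr1 and Esrrg), beside 11.1%. For 4 against 12 weeks 0 were called, beside 0.11%, and 4 had an unadjusted p under 0.05 (Nr1h3, Nr1i3, Vdr and Esr1), beside 4.47%. For 2 against 4 weeks 0 were called, beside 0.448%, and 3 had an unadjusted p under 0.05 (Nr1i3, Rxrg and Esrrg), beside 7.24%. For PH against 2 weeks 0 were called, beside 2.16%, and 3 had an unadjusted p under 0.05 (Nr1i3, Thra and Esr1), beside 11.6%. In the F test of all groups 0 were called, beside 1.79%, and 5 had an unadjusted p under 0.05, beside 11%. The lowest adjusted p of a member was 0.0914, for Esr1 at 2 against 12 weeks. Esr1, Rxrg or Nr1i3 passed under some alternative settings of the model.

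**Figure D1:**
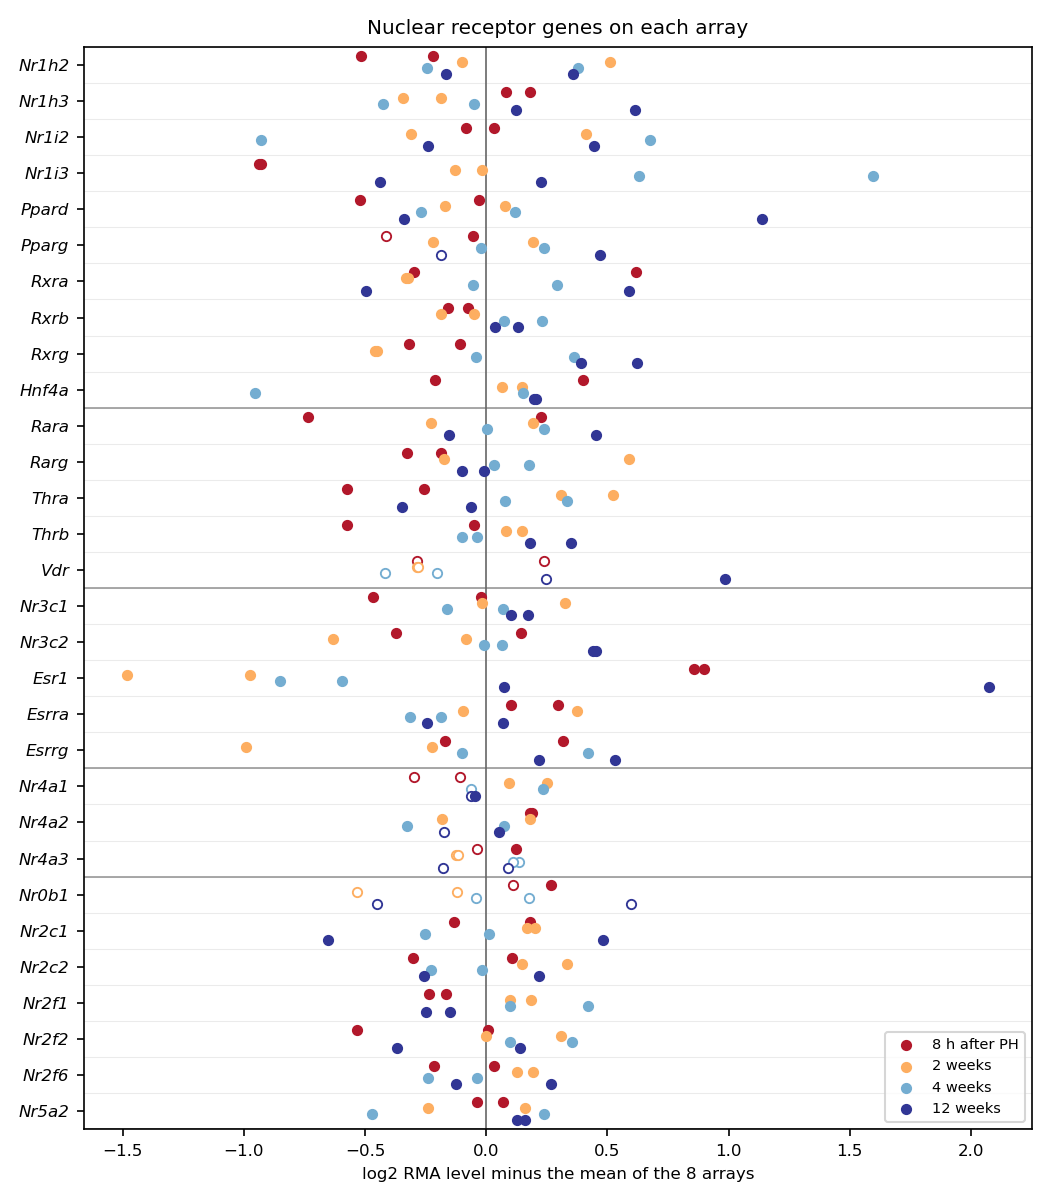
Level of each nuclear receptor gene on each of the 8 arrays, as the log2 RMA level minus that gene's mean over the arrays (x axis). Rows are genes in role order, with grey lines between roles, colours are the groups, and open circles mark arrays on which the gene was not above background. Esr1 and Nr1i3 spread furthest, Esr1 from 5.55 to 9.11 and Nr1i3 from 7.12 to 9.65.

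The sizes of the differences were near those of genes at large in 4 of the 5 comparisons, and larger for PH against 2 weeks. The median absolute log2 difference of the 30 members was 0.21 for PH against 12 weeks, where all genes had 0.19. It was 0.24 for 2 against 12 weeks, as for all genes, and 0.21 for 4 against 12 weeks against 0.19 for all genes. It was 0.20 for 2 against 4 weeks, beside 0.21, and 0.30 for PH against 2 weeks, beside 0.23. The 95% interval of the difference lay inside 2-fold in both directions for 17 of 30 members in PH against 12 weeks (56.7%, 66.1% of all genes) and 18 in 2 against 12 weeks (60%, 58.8%). It did so for 21 in 4 against 12 weeks (70%, 67%), 19 in 2 against 4 weeks (63.3%, 63.6%) and 18 in PH against 2 weeks (60%, 59.7%). For the rest a 2-fold difference was not excluded by these arrays.

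Most members had lower means after PH than at 12 weeks without being called. The PH mean was lower for 24 of the 30, with a median difference of -0.20, where the median over all genes was 0.0017. Both PH arrays were below both 12-week arrays for 11 members (Nr1h2, Nr1i3, Rxrb, Rxrg, Rarg, Thrb, Vdr, Nr3c1, Nr3c2, Nr4a1 and Nr5a2), beside 15.2% of all genes. Both PH arrays were above for Esrra and Nr4a2, beside 13.7% of all genes. Under 3 other scalings of the arrays the median ran from -0.26 to -0.17 and 23 or 24 members were lower. It was -0.09 without the second PH array, with 21 members lower, and -0.29 without the first. In the other comparisons the split was closer. At 4 against 12 weeks it was the same as for PH against 12 weeks without the second PH array. At 2 against 12 weeks 17 of 30 were lower (median -0.08), at 4 against 12 weeks 21 (median -0.08), at 2 against 4 weeks 14 (median 0.03) and at PH against 2 weeks 17 (median -0.12). These medians also rest on single arrays. For 4 against 12 weeks the median was -0.20 without the first 12-week array, and 17 or 18 members were lower in each fit that left out 1 array of 4 or 12 weeks. The median for 2 against 4 weeks was -0.10 when the first 2-week array was left out, and -0.04 or -0.11 when the first or the second 4-week array was. Without 1 array, 14 of 30 members turned sign in at least 1 fit for PH against 12 weeks and 9 for PH against 2 weeks. Between ages 16 did so at 2 against 12 weeks, 14 at 4 against 12 weeks and 14 at 2 against 4 weeks. Centring each array on its median moved the all-gene median for 2 against 12 weeks to -0.12 and the members' median to -0.19. It moved them to 0.16 and 0.02 for PH against 2 weeks, and for 2 against 4 weeks the members' median was -0.01 with this centring and -0.05 with 75th percentile scaling, so its sign in both comparisons depends on the scaling. Arrays that did not overlap were lower for 9 members and higher for 3 at 2 against 12 weeks (beside 16.8% and 17.6% of genes), and lower for 8 and higher for 5 at 4 against 12 weeks (11.3% and 13.7%). They were lower for 9 and higher for 5 at 2 against 4 weeks (20.1% and 20.1%), and lower for 10 and higher for 7 at PH against 2 weeks (22.2% and 24.6%).

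**Figure D2:**
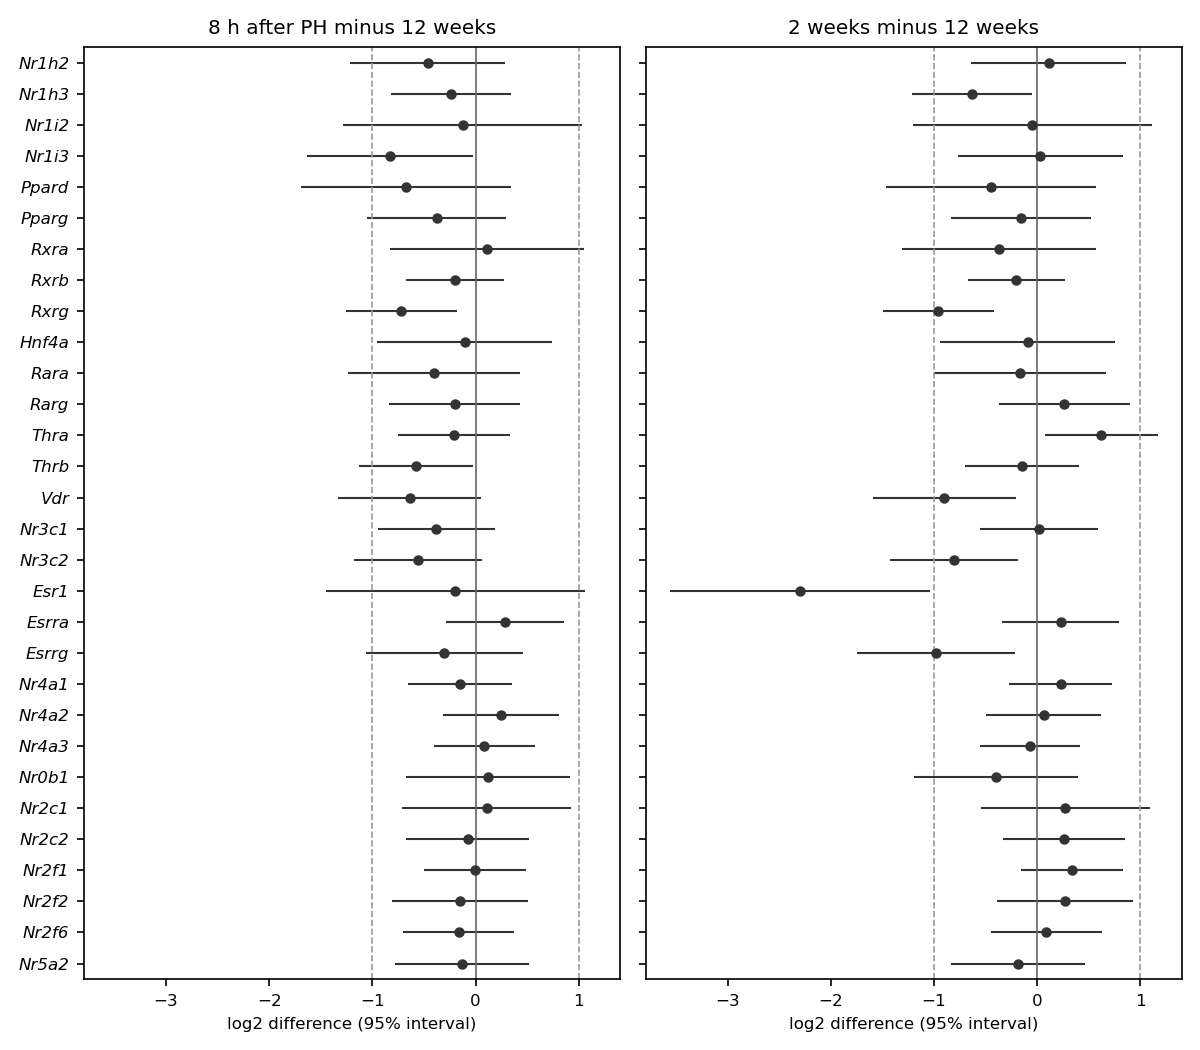
Log2 difference of each nuclear receptor gene (points) with its 95% interval (bars) for PH minus 12 weeks (left) and 2 weeks minus 12 weeks (right); dashed lines mark 2-fold. After PH 24 of 30 points lie below 0, and at 2 weeks Esr1 lies furthest out, at -2.30.

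Among the receptors for lipids, bile acids and foreign chemicals, the one that varied most was Nr1i3, the constitutive androstane receptor (CAR), which senses drugs and bilirubin. Nr1i3 was at 7.12 and 7.13 after PH, 7.93 and 8.04 at 2 weeks, 9.65 and 8.69 at 4 weeks, and 8.29 and 7.62 at 12 weeks. Both PH arrays were below the other 6 and both 4-week arrays above them, with no overlap between those groups. Over all 4 groups Nr1i3 had the lowest adjusted p of the members, 0.0935. The 4-week level differed from 12 weeks by 1.22 ± 0.35 (SE; adjusted p = 0.621), by 0.74 without the first 4-week array and by 1.70 without the second. The PH level differed from 12 weeks by -0.83 ± 0.35 (adjusted p = 0.814) and from 2 weeks by -0.86 ± 0.35 (adjusted p = 0.379). The first of these was -0.50 without the first 12-week array and -1.16 without the second. Nr1i2, the pregnane X receptor (PXR), was at 10.15 and 10.27 after PH, 9.93 and 10.65 at 2 weeks, 10.92 and 9.31 at 4 weeks, and 9.998 and 10.68 at 12 weeks. Its 4-week arrays held both the highest and the lowest value, so every group overlapped with that one. The PXR difference for PH against 12 weeks was -0.13, with a 95% interval from -1.28 to 1.03.

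Rxrg, one of the 3 shared Rxr partners, was at 7.76 and 7.98 after PH, 7.63 and 7.63 at 2 weeks, 8.04 and 8.45 at 4 weeks, and 8.48 and 8.70 at 12 weeks. The 12-week arrays were above the other 6. The difference was -0.72 ± 0.23 for PH against 12 weeks (adjusted p = 0.589) and -0.96 ± 0.23 for 2 against 12 weeks (adjusted p = 0.0989). Without 1 array the second of these ran from -1.08 to -0.85. Rxra, the main Rxr of hepatocytes, was at 11.27 and 10.36 after PH, 10.33 and 10.33 at 2 weeks, 10.95 and 10.60 at 4 weeks, and 11.25 and 10.16 at 12 weeks. The PH and the 12-week arrays of Rxra overlapped over nearly all of their range. The Rxra difference for PH against 12 weeks was 0.11 (95% interval -0.83 to 1.05), and it was 0.65 without the first 12-week array and -0.43 without the second. Rxrb ran from 6.82 to 7.24 over the 8 arrays, the narrow range of a gene with an interval of -0.67 to 0.27 for PH against 12 weeks.

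Hnf4a, which keeps up the hepatocyte programme, was at 11.82 and 11.21 after PH, 11.49 and 11.57 at 2 weeks, 11.57 and 10.47 at 4 weeks, and 11.62 and 11.62 at 12 weeks. Its second 4-week array was the lowest of the 8, and the PH difference from 12 weeks was -0.11 (95% interval -0.95 to 0.74). Nr1h3, the oxysterol receptor LXR alpha, was at 10.10 and 9.996 after PH, 9.73 and 9.57 at 2 weeks, 9.86 and 9.49 at 4 weeks, and 10.04 and 10.53 at 12 weeks. Both younger ages lay below the 12-week arrays. Nr1h3 differed by -0.63 ± 0.25 at 2 against 12 weeks (adjusted p = 0.385) and by -0.61 ± 0.25 at 4 against 12 weeks (adjusted p = 0.999). The first was -0.39 and the second -0.36 without the second 12-week array. Nr1h2, the related LXR beta, was lower after PH on both arrays than at 12 weeks and differed by -0.46 ± 0.33. The fatty acid receptors Ppard and Pparg differed by -0.68 ± 0.45 and -0.38 ± 0.30 for PH against 12 weeks. Without the first 12-week array these were 0.06 and -0.71, and without the second -1.41 and -0.05. Ppard was at 9.07 on the first 12-week array and between 7.41 and 8.05 on the other 7, and Pparg stayed between 5.52 and 6.41.

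**Figure D3:**
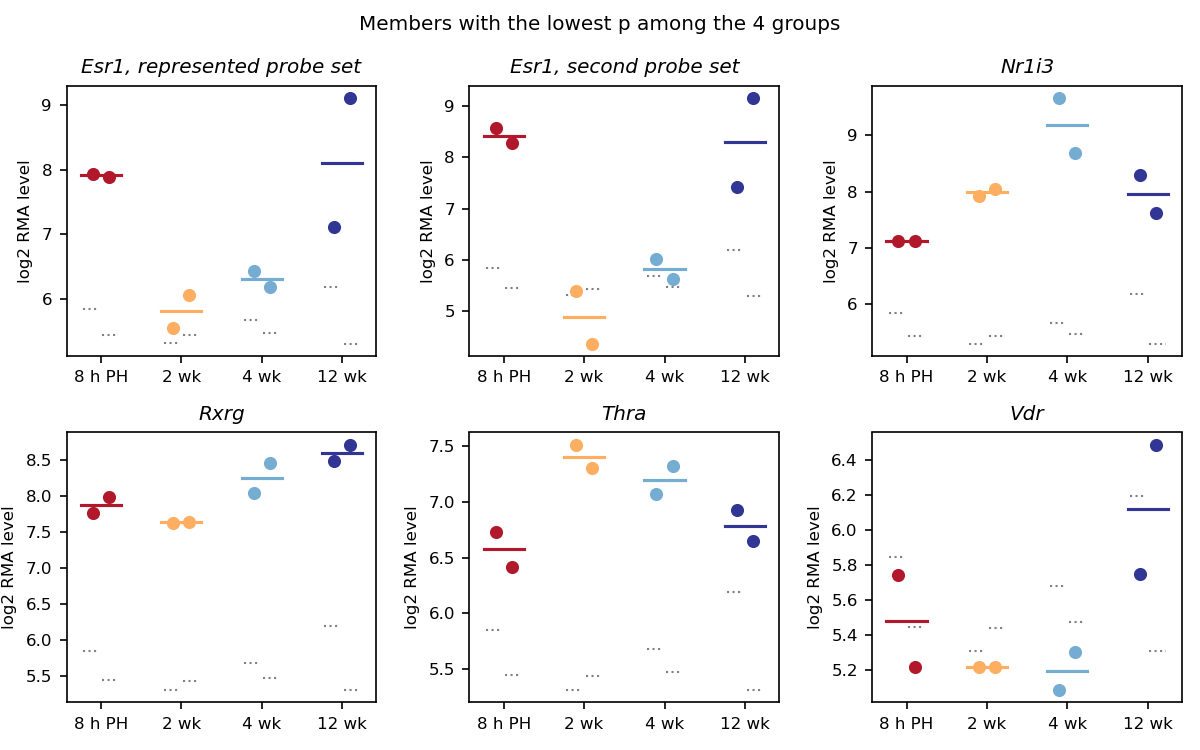
Log2 RMA level (y axis, a scale of its own in each panel) on every array (points) with the group mean (coloured bars) for the 5 members with the lowest p over the 4 groups, and for the second Esr1 probe set. Groups run PH, 2, 4 and 12 weeks, and dotted marks are the background of that array. Both Esr1 probe sets were lower at 2 and 4 weeks than on every PH and 12-week array, and most Vdr points lie under the background.

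The receptors for thyroid hormone differed in pattern. Thra, the form that is widespread over tissues, was at 6.73 and 6.42 after PH, 7.51 and 7.30 at 2 weeks, 7.07 and 7.32 at 4 weeks, and 6.93 and 6.64 at 12 weeks. Both 2-week arrays and both 4-week arrays were above the 12-week ones, and the PH arrays overlapped with them. Thra differed by 0.62 ± 0.24 at 2 against 12 weeks (adjusted p = 0.357) and by -0.83 ± 0.24 at PH against 2 weeks (adjusted p = 0.161). As a set, stellate and fibroblast markers moved the same way, with 3 of 11 markers (Des, Reln and Hgf) called higher at 2 than at 12 weeks. Unlike Thra, Hgf was also high after PH, at 8.65 and 8.81, against 7.70 and 7.55 at 12 weeks. The mean level of the 11 markers was 7.29 and 7.35 after PH and 8.46 and 8.19 at 2 weeks. It was 8.63 and 7.67 at 4 weeks, and 7.24 and 7.20 at 12 weeks. The erythroid markers given below were likewise higher at 2 and 4 weeks, for 7 of 7. The part of either set in the Thra values was not tested. Thrb, the main thyroid hormone receptor of hepatocytes, was at 8.44 and 7.92 after PH, 8.57 and 8.64 at 2 weeks, 8.39 and 8.45 at 4 weeks, and 8.84 and 8.67 at 12 weeks. It was highest at 12 weeks on both arrays. The Thrb difference for PH against 12 weeks was -0.58 ± 0.24 (adjusted p = 0.804), and it was -0.84 without the first PH array and -0.31 without the second.

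Vdr, the vitamin D receptor, which hepatocytes hold little of, was at 5.74 and 5.22 after PH, 5.22 and 5.22 at 2 weeks, 5.09 and 5.30 at 4 weeks, and 5.75 and 6.49 at 12 weeks. Only the second 12-week array was above its background. Vdr differed by -0.92 ± 0.30 at 4 against 12 weeks (adjusted p = 0.784) and by -0.90 ± 0.30 at 2 against 12 weeks (adjusted p = 0.260), which are differences between values near background. Without the second 12-week array they were -0.56 and -0.53. The same array had the highest mean of the 7 lymphocyte markers, 6.67, where the other 7 arrays had between 5.29 and 5.87. Of these markers 0 of 7 were called and 1 of 7 was above background on all arrays, and their part in the Vdr values was not tested. The retinoic acid receptors Rara and Rarg differed by -0.40 ± 0.36 and -0.20 ± 0.28 for PH against 12 weeks. The Rara value was 0.08 without the second PH array and -0.89 without the first. Rara ran from 7.66 to 8.85 over the 8 arrays and Rarg from 6.60 to 7.51, and their largest differences between ages were under those of Thra.

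Esr1, the estrogen receptor alpha, was the steroid receptor with the widest spread. Its represented probe set was at 7.94 and 7.89 after PH, 5.55 and 6.06 at 2 weeks, 6.44 and 6.18 at 4 weeks, and 7.11 and 9.11 at 12 weeks. Both younger ages lay below every PH and 12-week array. Esr1 differed by -2.30 ± 0.55 at 2 against 12 weeks (95% interval -3.56 to -1.04, adjusted p = 0.0914) and by -1.80 ± 0.55 at 4 against 12 weeks (adjusted p = 0.699). It differed by 2.11 ± 0.55 at PH against 2 weeks (adjusted p = 0.124), by -0.20 ± 0.55 at PH against 12 weeks and by -0.50 ± 0.55 at 2 against 4 weeks. The 12-week arrays stood 2.00 apart, more than any other pair. Without the first 12-week array the value for 2 against 12 weeks was -3.30, for 4 against 12 weeks -2.80 and for PH against 12 weeks -1.20, and the first 2 of these were then called. Without the second they were -1.30, -0.80 and 0.81.

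A second Esr1 probe set gave values of 8.57 and 8.27 after PH, 5.39 and 4.37 at 2 weeks, 6.02 and 5.62 at 4 weeks, and 7.43 and 9.15 at 12 weeks. Again both younger ages lay below every PH and 12-week array, and 1 of the 2-week arrays was under background. With every probe set tested on its own, this one fell by 3.41 ± 0.54 at 2 against 12 weeks (adjusted p = 0.0190) and rose by 3.54 at PH against 2 weeks (adjusted p = 0.0169). The represented probe set was not called in that fit (adjusted p = 0.0963 at 2 against 12 weeks). The difference of the second probe set was 0.13 at PH against 12 weeks. The probe sets read the same RNA samples and are not replicates of each other. The lymphocyte markers given beside Vdr were also highest on the array with the highest Esr1 level, and their part was not tested.

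The other steroid and estrogen-related receptors spread less. Nr3c1, the glucocorticoid receptor, was at 9.94 and 9.50 after PH, 10.29 and 9.95 at 2 weeks, 10.03 and 9.80 at 4 weeks, and 10.06 and 10.13 at 12 weeks. Both PH arrays were below both 12-week arrays by a little, and the difference was -0.38 ± 0.25 (95% interval -0.95 to 0.19). Nr3c2, the mineralocorticoid receptor, was at 7.54 and 7.02 after PH, 7.31 and 6.76 at 2 weeks, 7.46 and 7.38 at 4 weeks, and 7.83 and 7.85 at 12 weeks. The 12-week arrays were above the other 6, and the difference was -0.80 ± 0.27 at 2 against 12 weeks (adjusted p = 0.263) and -0.56 ± 0.27 at PH against 12 weeks (adjusted p = 0.903). The estrogen-related receptors act on genes of mitochondrial energy metabolism. Esrrg was at 6.89 and 6.12 at 2 weeks, against 7.65 and 7.33 at 12 weeks, a difference of -0.98 ± 0.33 (adjusted p = 0.269) that was -0.60 without the second 2-week array and -1.36 without the first. Esrra was at 7.29 and 7.76 at 2 weeks, against 7.14 and 7.46 at 12 weeks, a difference of 0.23 ± 0.25 that was -0.01 without the second 2-week array and 0.46 without the first. After PH Esrra was at 7.49 and 7.68, above both 12-week arrays, with a difference of 0.29 ± 0.25.

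The Nr4a receptors are early-response genes with no known need of a ligand, and their RNA is known to rise and fall within hours of a stimulus. Nr4a1 was at 5.53 and 5.34 after PH, 5.88 and 5.73 at 2 weeks, 5.57 and 5.87 at 4 weeks, and 5.57 and 5.59 at 12 weeks. Nr4a2 was at 6.22 and 6.22 after PH, against 5.86 and 6.09 at 12 weeks, and Nr4a3 at 5.32 and 5.48 after PH, against 5.45 and 5.18 at 12 weeks. Nr4a2 was above the background on 7 of 8 arrays, Nr4a1 on 4 and Nr4a3 on 1, so 0 of the 3 genes was above it on all arrays. With the highest receptor gene as the limit, each was above it on 0 arrays. The differences for PH against 12 weeks were -0.15 ± 0.22, 0.24 ± 0.24 and 0.09 ± 0.21, and 0 of the 3 had an unadjusted p under 0.05. Earlier hours were not sampled.

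Of the orphan receptors of other subfamilies, 6 of 7 were above background on all arrays, and in PH against 12 weeks their differences ran from -0.16 (Nr2f6) to 0.12 (Nr0b1). Nr5a2, the receptor LRH-1 that acts on genes of bile acid synthesis, was at 9.47 and 9.58 after PH, 9.67 and 9.27 at 2 weeks, 9.75 and 9.04 at 4 weeks, and 9.64 and 9.67 at 12 weeks. Its difference for PH against 12 weeks was -0.13 ± 0.28. Nr2f1, a COUP transcription factor, was at 6.43 and 6.50 after PH, 6.76 and 6.85 at 2 weeks, 6.76 and 7.08 at 4 weeks, and 6.41 and 6.52 at 12 weeks. The younger ages were above both PH and 12 weeks with no overlap. The Nr2f1 difference was 0.46 ± 0.22 at 4 against 12 weeks and 0.34 ± 0.22 at 2 against 12 weeks. The mean levels of the stellate and the erythroid markers were also higher at the younger ages, and their part was not tested. The related Nr2f2 ran from 8.49 to 9.38 and Nr2f6 from 8.15 to 8.66. The testicular receptors Nr2c1 and Nr2c2 ran from 6.70 to 7.83 and from 7.50 to 8.14, and on both ends of the Nr2c1 range stood a 12-week array. Nr0b1, which represses other receptors and lacks the usual DNA-binding domain, was at 5.96 and 4.91 on the 12-week arrays, and between 4.83 and 5.63 on the other 6.

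Of 15 further nuclear receptors listed, 9 were measured, and 1 of them was called. Nr1d1 (Rev-erb alpha), a repressor of the circadian clock, was at 9.98 and 9.04 after PH, 7.26 and 6.92 at 2 weeks, 10.33 and 10.09 at 4 weeks, and 6.99 and 7.56 at 12 weeks. The PH and 4-week arrays were above the 2- and 12-week arrays. Nr1d1 rose by 2.94 ± 0.35 at 4 against 12 weeks (adjusted p = 0.0258), fell by 3.12 ± 0.35 at 2 against 4 weeks (adjusted p = 0.00957) and rose by 2.42 ± 0.35 at PH against 2 weeks (adjusted p = 0.0120). The first call was kept in 2 of the 8 fits that each left out 1 array, those without a PH array, and its adjusted p reached 0.209. The call at 2 against 4 weeks was kept in 5 of 8, and lost without the second 2-week array or either 4-week array. The call at PH against 2 weeks was kept in 5 of 8, and lost without the first PH array or either 2-week array. The sources used here do not give the hour of day at which livers were taken. Nr0b2, the small heterodimer partner SHP, which is induced by bile acids and represses other receptors, was at 6.72 and 6.73 after PH, against 8.12 and 8.70 at 12 weeks. It was also at 8.29 and 7.40 at 2 weeks and 9.53 and 9.45 at 4 weeks, so the PH arrays were the lowest of all. The difference for PH against 12 weeks was -1.68 ± 0.33 (adjusted p = 0.208). Ppara, the fatty acid receptor most abundant in liver, was at 10.89 and 10.80 at 2 weeks, against 9.22 and 9.39 at 12 weeks, a difference of 1.55 ± 0.38 (adjusted p = 0.102).

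Of 18 coregulators listed, which carry the receptors' signal to chromatin, 15 were measured and 0 were called in each of the 5 comparisons. Ppargc1a, the coactivator PGC-1 alpha of energy metabolism, differed most at 2 against 12 weeks. It was at 7.82 and 8.97 at 2 weeks, against 6.94 and 5.75 at 12 weeks, a difference of 2.05 ± 0.47 (adjusted p = 0.0758). Of 10 steroid receptor chaperones, the heat shock proteins and partners that hold the unliganded receptor, 1 was called. Fkbp5, which is also a glucocorticoid target, rose by 1.65 ± 0.33 at 2 against 12 weeks (adjusted p = 0.0441), a call kept in 1 of 8 fits without 1 array, the fit without the second 12-week array. The chaperones' median difference was 0.41 at PH against 12 weeks with 8 of 10 above 0, -0.40 at 4 against 12 weeks with 1 of 10 above 0, and 0.33 at 2 against 4 weeks with 9 of 10 above 0. The first of these was 0.05 without the first 12-week array and 0.86 without the second, and the value for 4 against 12 weeks was -0.70 and -0.09.

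Genes known as targets of these receptors were called between ages, with no call for the members in the main model. Calls of targets without a call of a member do not show that the members kept their level. The counts below also include other receptors, and hold the Nr1d1 calls given above. Of 127 genes beside the members on the lists of other receptors, coregulators, chaperones and targets, 0 were called for PH against 12 weeks, where the calls over all genes were 0.0207% higher and 0.0138% lower. At 2 against 12 weeks 6 were called higher and 15 lower, beside 1.29% and 0.938% of all genes. At 4 against 12 weeks 2 were called higher and 1 lower, beside 0.0827% and 0.0276%. At 2 against 4 weeks 2 were called higher and 9 lower, beside 0.152% and 0.296%. At PH against 2 weeks 13 were called higher and 7 lower, beside 0.793% and 1.36%. The lists were chosen with earlier results of these data known, so these counts cannot be weighed against the shares over all genes. The comparisons share arrays, and a low 2-week level counts in both 2 against 12 weeks and PH against 2 weeks. The count of 21 at 2 against 12 weeks was 13 without the first 2-week array, that of 3 at 4 against 12 weeks was 1 without the first 4-week array, that of 11 at 2 against 4 weeks was 5 without the second 4-week array, and that of 20 at PH against 2 weeks was 9 without the first PH array. In all 8 such fits 12, 1, 4 and 7 of these genes were kept, and they lead the account below.

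Of 14 measured targets of CAR and PXR, which handle drugs and bile acids, 2 rose and 5 fell at 2 against 12 weeks. There Nr1i3 differed by 0.03 (95% interval -0.77 to 0.83) and Nr1i2 by -0.05 (-1.21 to 1.11). Without 1 array the Nr1i3 value ran from -0.30 to 0.36 and that of Nr1i2 from -0.41 to 0.31. For Nr1i2 a 2-fold difference was not excluded. Cyp3a2 was at 13.06 and 12.79 at 2 weeks, against 6.80 and 6.22 at 12 weeks, and the related Cyp3a9 averaged 4.86 ± 0.65 at 2 weeks, under background, against 10.53 ± 0.58 at 12 weeks (SD, n = 2). Genes of the Cyp3a family can share signal between probe sets. The bile acid and drug importer Slco1a4 fell by 3.08 ± 0.28 and the sulfotransferase Sult2a1 fell by 4.21 ± 0.57, and both calls were kept in all 8 fits. Cyp2b1, a classical CAR target, was at 6.99 and 5.43 after PH, 11.54 and 11.04 at 2 weeks, 8.64 and 9.99 at 4 weeks, and 7.89 and 6.71 at 12 weeks. It was highest at 2 weeks and rose by 3.99 ± 0.63 relative to 12 weeks, a call lost without either 2-week array or the second 12-week array. For PH against 12 weeks the 14 targets had a median of -0.55 (-0.35 without the second PH array), with 4 above 0 and 0 called. At 4 against 12 weeks 1 rose and 1 fell. These were Cyp3a2, the gene kept there in all 8 fits, with a difference of 5.92, and Cyp3a9 with -5.77. Without 1 array the Cyp3a9 value ran from -6.36 to -5.18. At 4 weeks Cyp3a2 was at 12.36 and 12.51 and Cyp3a9 at 4.17 and 5.35, so both were near their 2-week levels. At 2 against 4 weeks 1 target fell, and at PH against 2 weeks 4 rose and 3 fell.

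Of 11 measured targets of the LXR receptors, 1 rose and 2 fell at 2 against 12 weeks. The count of 11 includes the member Nr1h3. Lpl, the lipase of triglyceride-rich particles, rose, while the desaturase Scd and Cyp7a1, the first enzyme of bile acid synthesis, fell, each in all 8 fits. Cyp7a1 was at 6.58 and 7.53 at 2 weeks and 11.56 and 12.82 at 4 weeks, against 11.21 and 12.20 at 12 weeks, so of the ages only the 2-week arrays were low. The same 3 genes were called at 2 against 4 weeks (1 higher, 2 lower) and at PH against 2 weeks (2 higher, 1 lower). The Scd call was lost at 2 against 4 weeks without the second 4-week array, and at PH against 2 weeks without the first PH array. In the other comparisons 0 of 11 were called. Of 16 PPAR targets, Vnn1 rose by 3.98 ± 0.41 at 2 against 12 weeks and Cd36 fell by 1.88 ± 0.35. The Cd36 call was lost without the second 12-week array or any array of 2 or 4 weeks. At 2 against 4 weeks 1 rose, at PH against 2 weeks 1 rose and 3 fell, and 0 of 16 were called in the other comparisons. For PH against 12 weeks 14 of the 16 were above 0 without a call, with a median of 0.29, which was 0.14 with 10 above 0 without the second PH array, 0.60 without the first and 0.47 without the second 12-week array.

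Of 9 thyroid hormone targets, 3 fell at 2 against 12 weeks, namely Thrsp, Me1 and Acacb, genes of fatty acid metabolism. Thrsp was at 7.20 and 5.97 at 2 weeks, against 12.42 and 13.45 at 12 weeks, beside a Thrb difference of -0.15 ± 0.24. The same 3 fell at 2 against 4 weeks. There the Me1 call was lost when any 1 array of 2 or 4 weeks was left out. The Acacb call was lost without either 2-week array or the first 4-week array. Thrsp was higher after PH than at 2 weeks, with a mean of 12.82 after PH and 12.93 at 12 weeks. In the other comparisons 0 of 9 were called. The Me1 call at 2 against 12 weeks was lost without the first 2-week array. Of 13 HNF4A targets, Apoa2 fell by 2.39 ± 0.24 and Ces1d fell by 2.99 ± 0.26 at 2 against 12 weeks and in all 8 fits, beside an Hnf4a difference of -0.09 ± 0.37. Both fell also at 2 against 4 weeks. There the Apoa2 call was lost when any 1 array of 2 or 4 weeks was left out. The Ces1d call was lost without the second 4-week array. At PH against 2 weeks 3 of 13 rose, namely Apoa2, Ces1d and Apoa4. The Apoa4 call was lost without either PH array or the first 2-week array. In the other comparisons 0 of 13 were called. Of 14 glucocorticoid targets, 2 rose (Fkbp5 and Mt2A) and 1 fell (Tdo2) at 2 against 12 weeks, and each call was kept in at most 1 of the 8 fits. Tdo2 was higher after PH than at 2 weeks, with a mean of 11.74 after PH and 11.31 at 12 weeks. That call was lost without either PH array, either 4-week array or the first 2-week array. Of the 14 targets, 0 were called in the other comparisons. For PH against 12 weeks their median was 0.55 with 10 of 14 above 0, but 0.05 with 7 above 0 without the second 12-week array. Mt2A differed by 2.40 ± 0.47 (adjusted p = 0.211). Of 13 genes of retinoic acid response and retinoid handling, Aldh1a1 fell at 2 against 12 weeks, a call kept in 1 of 8 fits, and 0 were called elsewhere. Of 7 genes of vitamin D response and synthesis 0 were called in the 5 comparisons.

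**Figure D4:**
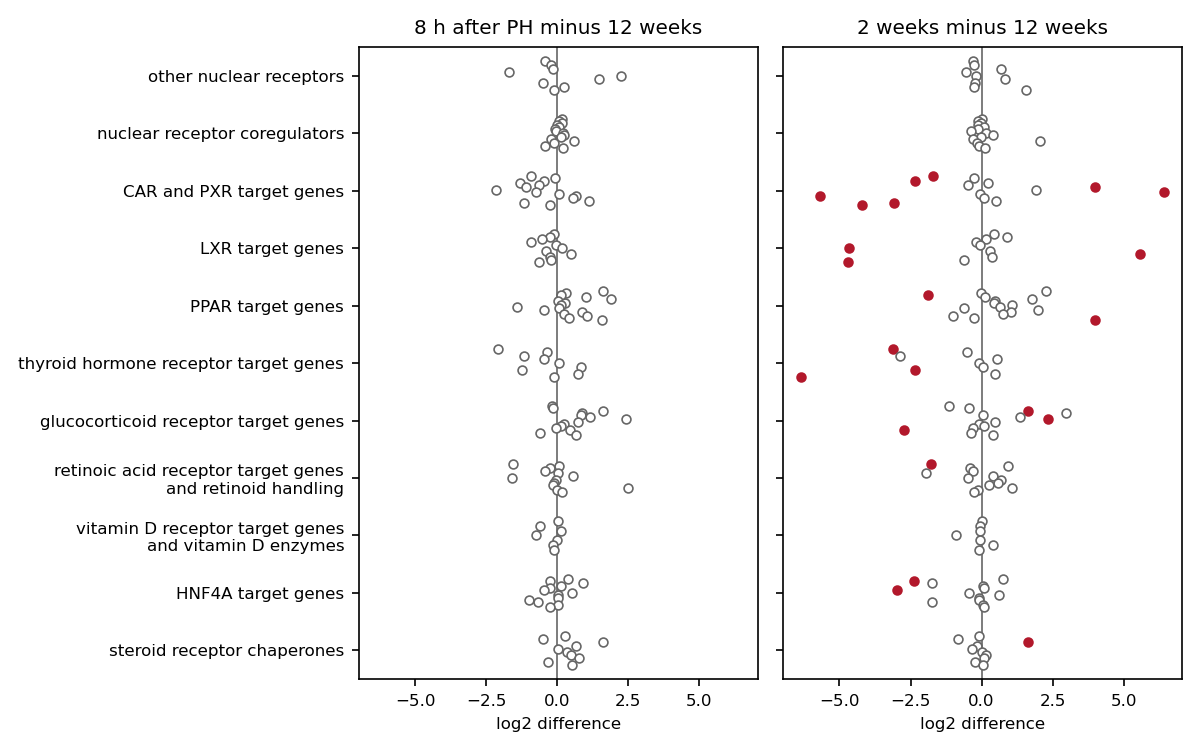
Log2 difference (x axis) of each measured gene on the 11 lists of related genes (rows) for PH minus 12 weeks (left) and 2 weeks minus 12 weeks (right). Filled red points passed the adjusted p of 0.05. No point is filled after PH, and 21 genes are at 2 weeks, the points of Fkbp5 standing in both the glucocorticoid and the chaperone row.

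Among markers of other liver and blood cells, erythroid markers were higher at 2 than at 12 weeks for 3 of 7 (Alas2, Ahsp and Slc4a1), and the same 3 were lower after PH than at 2 weeks. Their mean level was 5.31 and 5.18 after PH, 8.03 and 6.85 at 2 weeks, 6.36 and 6.70 at 4 weeks, and 5.55 and 5.48 at 12 weeks. Reln of the stellate list and Fabp4 of the adipocyte list were lower after PH than at 2 weeks. Fabp4 was under background on both PH arrays, at 3.91 and 5.07. Its call was lost when any 1 array of PH, 2 or 4 weeks was left out. Hepatocyte (8 measured), endothelial (5), macrophage (8), cholangiocyte (5), lymphocyte (7), neutrophil (7) and pancreas markers (6) had 0 calls in the 5 comparisons. The neutrophil markers averaged 8.07 on the first 2-week array and between 4.91 and 5.85 on the other 7, with 0 of 7 above background on all arrays. The part of these cells in the age differences of receptors and targets was not tested.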

How the data were processed

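The authors deposited log2 RMA levels, and the submitters' processing notes name RMA and Affymetrix Expression Console. RMA subtracts a background, gives the arrays a common distribution and turns many probes into 1 value, which compresses differences of dim genes. The sources used here give no versions, filters or scan batches. Of 29214 probe sets, 15310 had 1 gene symbol, 323 several and 13581 none here. 15279 of the single symbols matched the GRCr8 RefSeq gene table, and 527 genes had several probe sets, of which the one with the highest mean was kept. The model was limma 3.58.1 (R 4.3.3), lmFit and eBayes, with 4 residual and 4.27 prior degrees of freedom, and it was tested on simulated data. Log2 differences carry the moderated standard error (SE). The number of arrays limits the precision. All measured members are named, and of the 11 lists of related genes and the 10 marker lists the genes that passed, plus at most the 2 with the largest difference per list and comparison. The promoters printed, arrays left out for list genes, and the medians of members and lists under other settings were chosen after seeing the data. The members and lists were chosen with earlier results of these data known. The background limit takes receptor genes with symbols beginning Olr, Vom1r, Vom2r, Tas2r or Taar, and a wider set of 1281 genes, with the newer Or symbols, was added after seeing the data. Replicate numbers were not taken as pairing the arrays, because the labels name nothing that same-numbered arrays share.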

Additional observations from a re-analysis of the deposited data

How the results depend on the processing

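For PH against 12 weeks and 2 against 4 weeks 0 members were called under all 22 alternatives of each. At 2 against 12 weeks 1 member (Esr1) was called with arrays centred on their median, with 75th percentile scaling and with the probe set of largest variance. It was 2 (Rxrg and Esr1) with quantile normalization again, with the receptor-gene background as a covariate and at an adjusted p under 0.1. At PH against 2 weeks 1 (Esr1) was called with median centring, 75th percentile scaling, the largest variance, limma arrayWeights and the covariate. Over the 4 groups 1 was called with 75th percentile scaling or the largest variance (Esr1) or at an adjusted p under 0.1 (Nr1i3), and 2 (Nr1i3 and Esr1) with arrayWeights or the covariate. With each array left out, 0 to 1 members were called at 2 against 12 weeks, 4 against 12 weeks, PH against 2 weeks and over the 4 groups. All of those calls were of Esr1, without a 12-week array. With the replicate block 2 members were called at 2 against 12 weeks, 1 at PH against 2 weeks and 1 over the 4 groups, and 0 in the others. With 2 numbers a group the data do not settle whether they pair the arrays. Deviations of same-numbered arrays correlated by 0.0226 between 2 and 12 weeks and by 0.180 to 0.568 in the other 5 pairs of groups. Members above background on all arrays were 12 with the highest receptor gene as the limit, 19 with the 99th percentile and 24 with the wider receptor set. Of 3250 member differences under the alternatives 140 turned sign, 0 of them among the 436 with an unadjusted p under 0.05. Many alternatives change only the test, the cut-off or arrays outside the comparison, and these cannot turn a sign. The share is therefore no measure of stability. Without 1 array, between 9 and 16 of 30 members turned sign in a comparison. Calls over all genes moved more than calls of members. They ran without 1 array from 1 to 11 for PH against 12 weeks, 101 to 382 for 2 against 12 weeks, 5 to 24 for 4 against 12 weeks, 26 to 104 for 2 against 4 weeks, 72 to 421 for PH against 2 weeks and 86 to 366 over the 4 groups. With the replicate block they were 41, 515, 30, 128, 500 and 485 in that order. With arrayWeights they were 2, 181, 10, 115, 587 and 402, and with the covariate 39, 461, 27, 146, 395 and 471. With 2 arrays a group, members whose interval reaches beyond 2-fold cannot be said to have kept their level. The cause of these changes was not tested.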
